A study of Mus musculus with 30 samples.

Results

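The 38 genes described here act in DNA replication and in mitosis. They were chosen by what their proteins do, with no H3K4me3 or site value in the rule. The choice was, however, made with earlier results of these data known. All 38 were found among the 21631 protein-coding genes of mouse chromosomes 1 to 19 and X in the RefSeq table of build GRCm38.p6. They comprise 21 genes of replication proper (licensing of origins, activation of the helicase, DNA synthesis and deoxynucleotide supply), 3 genes of entry into S phase (E2f1, Ccne1 and Ccne2) and 14 genes of mitosis (cyclins and kinases, the spindle and its checkpoint, and chromosome structure). The series used chromatin immunoprecipitation with sequencing (ChIP-seq) in cultured C57BL/6 mouse cells that carry a form of HOXA9, the homeodomain protein that keeps blood progenitors immature. In ER-Hoxa9-Lys-GFP cells HOXA9 is joined to the estrogen receptor, so that the fusion protein needs estradiol (E2). H3K4me3, the trimethylated histone mark of active promoters, was mapped in 5 conditions of these cells: with E2 throughout, deprived for 24 h and returned to it for 96 h, deprived for 40 h and returned for 80 h, deprived for 72 h and returned for 48 h, or deprived for 120 h without return. These conditions are called E2, 24 h, 40 h, 72 h and 120 h below, and where 5 values are given in a row they stand in that order. A longer withdrawal always came with less time back in E2, so the effects of both cannot be told apart. Sites of tagged HOXA9 came from untreated V5-Hoxa9-AM cells (ChIPs titled V5 and AM) and from V5-ER-Hoxa9-AM cells, which carry the E2-dependent form, in E2 (V5 and AM) and after 72 h without and 48 h with E2 (V5). All cells grew in medium with stem cell factor. The labels do not explain AM, give V5 as the antibody of the AM samples too, and do not say whether a line is a clone. There was a single library of each kind (1 per condition), and differences are therefore described without a p-value or an error.

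Replication is prepared in G1, when the origin recognition complex, CDC6 and CDT1 load the ring of MCM2 to MCM7 onto DNA. Cyclin E with its kinase, and the E2F factors it releases from RB, then open S phase: MCM10, CDC45 and the GINS complex turn the ring into a working helicase, and polymerases with the PCNA clamp copy the strands. Cyclin B with CDK1 drives the cell into mitosis, where Aurora and Polo kinases build the spindle and the BUB proteins hold back CDC20 until every chromosome is attached. Dividing myeloid progenitors express these genes, and the cells leave the cycle as they mature into granulocytes or macrophages.

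The promoters of the replication and the mitosis genes carry different letters, shown here for 9 genes on which later results turn. RefSeq promoter entries (GRCm38.p6, from 250 bases before to 50 bases after the start of transcription) existed for 30 of the 38 genes; Mcm4, Gins1, Gins2, Pole, Ccne2, Ccna2, Aurkb and Tpx2 had no entry. The lines give the 120 bases before the start, 5′ to 3′ on the strand of the gene. Capitals mark E2F letters (TTTCCCGC, TTTCGCGC, TTTGCCGC or TTTGGCGC), the CHR letters of G2/M genes (TTTGAA) and the CCAAT box, on either strand, so that a CCAAT box on the other strand reads ATTGG. Mcm6, Rrm1 and Top2a are shown because their mark was among the most narrowed at 120 h, E2f1 and Ccne1 because theirs was widest there, Orc1, Cdk1 and Mcm10 because a V5 or AM site covers the stretch, and Cdc20 as a compact mitotic promoter.
Mcm6, chr1:128359706-128359825, minus strand: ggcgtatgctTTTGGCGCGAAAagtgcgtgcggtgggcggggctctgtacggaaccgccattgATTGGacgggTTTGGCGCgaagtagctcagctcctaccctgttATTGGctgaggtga
Orc1, chr4:108579334-108579453, plus strand: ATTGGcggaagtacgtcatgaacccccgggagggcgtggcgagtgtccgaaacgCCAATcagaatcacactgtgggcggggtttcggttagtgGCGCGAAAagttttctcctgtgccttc
Rrm1, chr7:102441575-102441694, plus strand: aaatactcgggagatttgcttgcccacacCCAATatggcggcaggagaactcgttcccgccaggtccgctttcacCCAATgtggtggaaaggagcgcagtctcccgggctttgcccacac
Mcm10, chr2:5012792-5012911, minus strand: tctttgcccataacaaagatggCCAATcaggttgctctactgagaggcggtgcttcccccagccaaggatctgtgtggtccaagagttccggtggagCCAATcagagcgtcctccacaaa
E2f1, chr2:154569427-154569546, minus strand: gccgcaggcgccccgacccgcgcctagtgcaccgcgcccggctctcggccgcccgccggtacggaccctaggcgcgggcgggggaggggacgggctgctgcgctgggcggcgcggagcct
Ccne1, chr7:38107491-38107610, minus strand: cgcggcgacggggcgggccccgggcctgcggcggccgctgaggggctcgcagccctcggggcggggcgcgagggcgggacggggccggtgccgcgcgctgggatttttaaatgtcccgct
Cdk1, chr10:69352913-69353032, minus strand: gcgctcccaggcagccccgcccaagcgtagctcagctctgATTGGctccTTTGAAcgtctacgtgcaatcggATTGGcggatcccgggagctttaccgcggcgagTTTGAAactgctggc
Cdc20, chr4:118437344-118437463, minus strand: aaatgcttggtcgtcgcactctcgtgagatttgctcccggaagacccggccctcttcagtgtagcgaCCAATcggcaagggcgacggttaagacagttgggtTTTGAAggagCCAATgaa
Top2a, chr11:99024190-99024309, minus strand: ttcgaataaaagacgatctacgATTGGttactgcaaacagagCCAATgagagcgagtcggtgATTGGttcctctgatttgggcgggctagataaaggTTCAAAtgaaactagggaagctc
In Mcm6, 2 overlapping E2F matches open the first run of capitals and another stands nearer to the start. Cdk1, Cdc20 and Top2a each pair CHR letters with CCAAT boxes, whereas the stretches of E2f1 and Ccne1 hold none of these letters.

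Over the whole 300 bases, E2F letters were found in 9 of 20 promoters of the replication and S phase entry genes (45.0%; 19 genes, as Mcm7 has 2 entries) and in 1 of 11 promoters of the mitosis genes (9.09%), that of Cdk1. Among all 21045 promoters of protein-coding genes in the table the share was 2.88%. CHR letters showed the reverse, with 2 of 20 (10.0%, in Mcm2 and Cdc45) against 9 of 11 (81.8%) and 15.6% of all promoters. A CCAAT box stood in 15 of 20 and in 11 of 11, against 38.5% of all promoters, and all 9 mitotic promoters with CHR letters also had a CCAAT box, a pair found in 6.42% of all promoters. Among genes with an H3K4me3 peak in E2 the shares were 4.24% for E2F, 12.4% for CHR and 38.9% for CCAAT. HOX letters (TGATTTAT or TGATTGAT) occurred in 0 of the 31 promoter windows and in 1.42% of all. Matches of different motifs may share bases, and a match is a description of the sequence, not evidence of binding.

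The H3K4me3 lists held 17497, 22871, 21329, 21790 and 23835 peaks that covered 10.4, 14.2, 14.9, 16.0 and 17.3 Mb, so the lists differed in how much was called. The lists give positions and no heights, and the depth of the libraries is unknown. The cells carried myeloid marks: 10 of 12 myeloid progenitor markers had a peak in E2, against 0 of 7 lymphoid, 1 of 6 erythroid and megakaryocyte (Klf1) and 1 of 7 fibroblast, epithelial and endothelial markers (Pecam1). Elane had no peak in any list. The summed covered length of the progenitor markers ran from 29480 bp at 120 h to 39524 bp at 24 h, while 1 of 20 neutrophil maturation genes was marked in E2 and 16 of 20 at 120 h; their part in the results below was not tested. In bulk samples, fewer cells with a mark and a narrower mark per cell cannot be told apart.

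All 38 genes carried H3K4me3 in every one of the 5 lists. A gene was called marked where a peak overlapped the gene or 1 kb on either side, which held for 47.1%, 50.7%, 50.5%, 51.4% and 53.2% of all genes. Within this window peaks covered a median of 1355, 1582, 1739.5, 1860.5 and 1421 bp of the 38 genes. Over all marked genes the medians were 977, 1217, 1285, 1396.5 and 1370 bp, so the 38 genes stood well above the typical marked gene in the first 4 lists and close to it at 120 h. No gene lost the mark, and the differences below concern its width.

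In E2 the widest covered lengths belonged to Mki67, which encodes the Ki-67 protein that coats mitotic chromosomes (2646 bp), Aurka, the centrosomal Aurora kinase (2469 bp), Kif11, the spindle motor (2259 bp), Rrm2, the small subunit of ribonucleotide reductase (2200 bp), and Mcm7 (2169 bp). Ccne1, a cyclin E gene (467 bp), Pola1, the catalytic subunit of the polymerase that primes DNA synthesis (518 bp), Ccnb2, a cyclin B gene (554 bp), Mcm10 (658 bp) and Bub1, a checkpoint kinase (714 bp), had the least. The order was not one of replication against mitosis: both ends of it held genes of both arms. The windows of Aurka (Fam210b and Cstf1) and Mcm7 (Cops6 and Ap4m1) also hold part of other genes, and any peak of theirs there is counted. At the wide end some lengths varied little, as with Mki67 at 2646, 2655, 2872, 2989 and 2699 bp and Kif11 at 2259, 2319, 2643, 2383 and 2432 bp. Aurka (2469, 2702, 2658, 2717 and 2332 bp) and Rrm2 (2200, 2704, 2592, 2996 and 2525 bp) were likewise within 1.5-fold of E2 throughout. Others differed more between lists: Mcm7 had 2169, 3049, 2776, 2495 and 1992 bp. Mcm6, next in E2 at 2156 bp, had 1402 bp at 120 h.

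**Figure D1:**
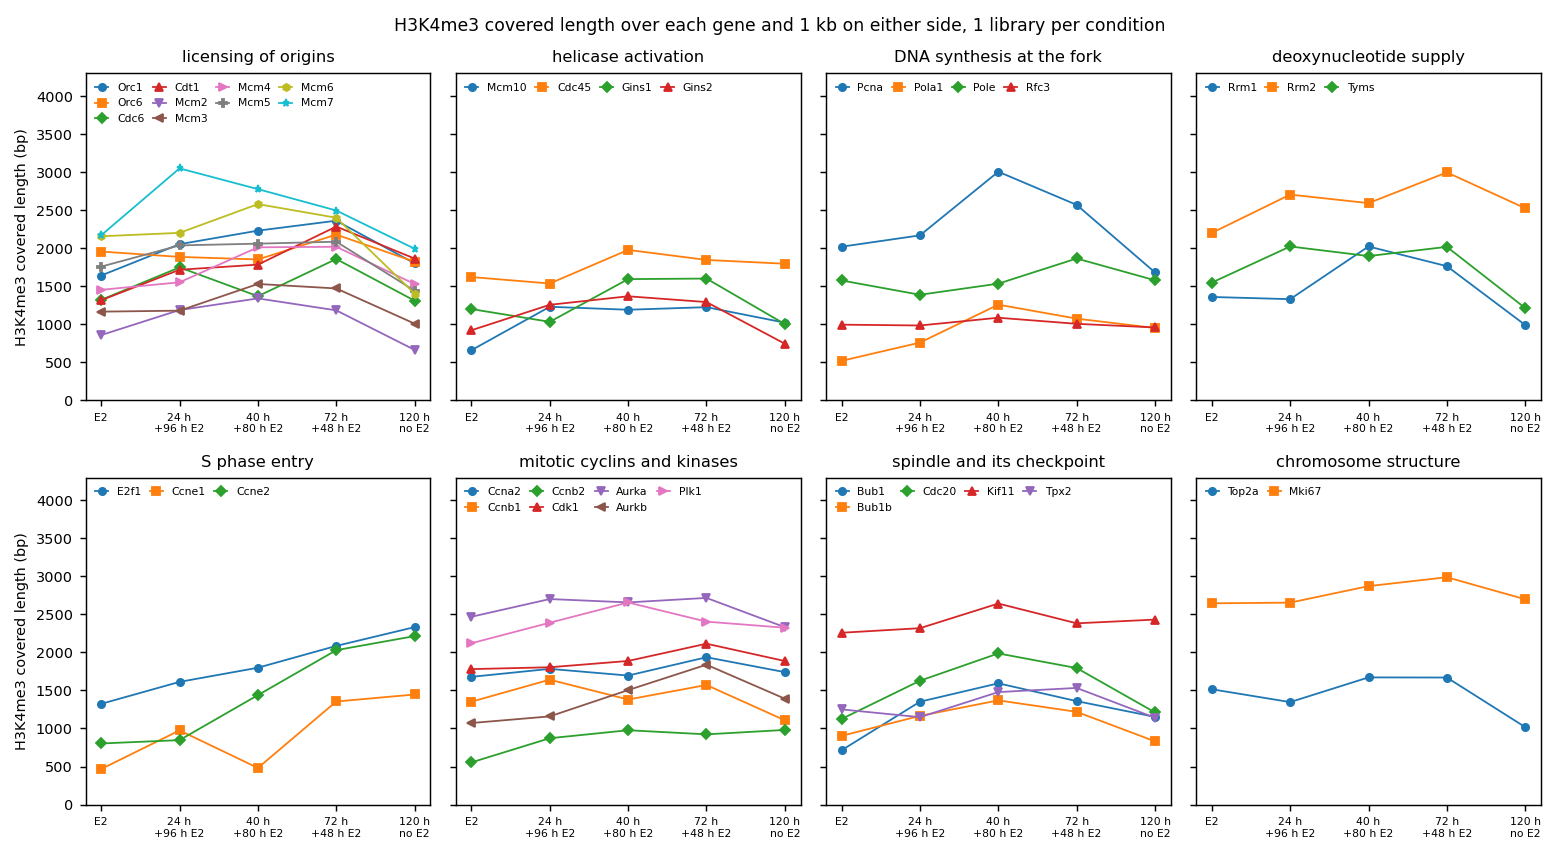
Covered length in bp (y axis, from 0) of each of the 38 genes in the 5 H3K4me3 lists (x axis), 1 panel per role and 1 library per point, with no error bars as there are no replicates. In the panel of S phase entry the lines end highest at 120 h, whereas in the 4 panels of replication proper all 21 genes are lower at 120 h than at 72 h.

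Across the set the covered length was greatest at 40 h or 72 h and least in E2 or at 120 h. The sum over the 38 genes was 54430, 62408, 69140, 71505 and 57520 bp. The highest value fell in the 40 h list for 15 genes, in the 72 h list for 15, in the 24 h list for 4 and in the 120 h list for 4; the lowest fell in E2 for 18, at 120 h for 18 and at 24 h for 2. The sums in E2 and at 120 h were thus the lowest, although the 120 h list covered the most sequence over the genome.

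Against E2, a gene was counted as wider or narrower where the covered length (plus 50 bp) differed by 1.5-fold or more. At 24 h, 4 of the 38 genes were wider, against 33.1% of all genes marked in at least one of the lists compared, and 0 narrower (1.96% of all genes). At 40 h, 7 were wider (35.9%) and 0 narrower (1.46%), and at 72 h, 10 were wider (46.8%) and 0 narrower (1.54%). At 120 h, 7 were wider (50.5%) and 1 narrower (2.29%). The shares of wider genes among the 38 were therefore below the background each time, while 0 or 1 narrower gene is too few to set against it. The median log2 ratio to E2 was 0.15, 0.33, 0.37 and 0.01 for the 38 genes and 0.35, 0.40, 0.54 and 0.59 for all genes, and 30, 36, 38 and 20 of the 38 had a higher covered length than in E2, against 83.3%, 88.7%, 93.4% and 85.2% of all genes. The numbers with a lower one were 8, 2, 0 and 18, against 16.6%, 11.2%, 6.5% and 14.7%. The set was thus near the background in this count at 24, 40 and 72 h and below it at 120 h. By the width of the widest peak, 11 genes were wider and 4 narrower at 120 h, and with peaks above the median width of their list 8 were narrower. Under these measures no share of all genes was computed, so the counts have no background to be read against. These comparisons share the single E2 list.

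Because the lists differed in how much was called, each ratio was also divided by the median ratio of all genes. Then 1, 2, 2 and 2 genes were wider than in E2 at 24, 40, 72 and 120 h, and 0, 0, 0 and 19 were narrower. On the same scale 18.7%, 18.1%, 21.2% and 27.4% of all genes were wider at 24, 40, 72 and 120 h. The shares of all genes narrower were 5.86%, 4.54%, 5.37% and 15.1%. The median of 0.01 for the 38 genes was also below the 0.49 of genes marked in both lists and below that of genes with an E2 covered length between 467 and 2646 bp, the range of the 38 genes, which was 0.42.

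Between 40 h and 72 h little differed. Only Ccne1 was wider (14.0% of all genes) and 0 genes were narrower (4.56%), with a median log2 ratio of 0.01 against 0.11 for all genes. Of the 38, 21 were higher (66.5%) and 17 lower (33.4%). Divided by the median of all genes the counts were also 1 and 0, beside 10.9% and 5.93% of all genes. Between 72 h and 120 h the set was lower: 0 of 38 genes were wider (16.0%) and 8 were narrower (7.13%), 33 were lower (49.2%) and 5 higher (50.8%), and the median log2 ratio was -0.30, against 0.01 for all genes. The count of 8 depends on the measure: it was 0 at 2-fold, 13 with lists of equal length, 14 by the widest peak or with peaks above the median width, and 1 where only the 1 kb around each end of the gene was counted, with a median of -0.02 there. Under these alternatives no share of all genes was computed, so their counts have no background. The centred counts were the same, 0 and 8, beside 15.9% and 7.34% of all genes. Genes marked in both lists had a median of -0.01, and genes in the range of the 38 at 72 h one of -0.05. Of the 38 genes, 24 have no other protein-coding gene in their window, and among these 6 were narrower and the median was -0.40. The share narrower among all genes without a neighbour was not computed.

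**Figure D2:**
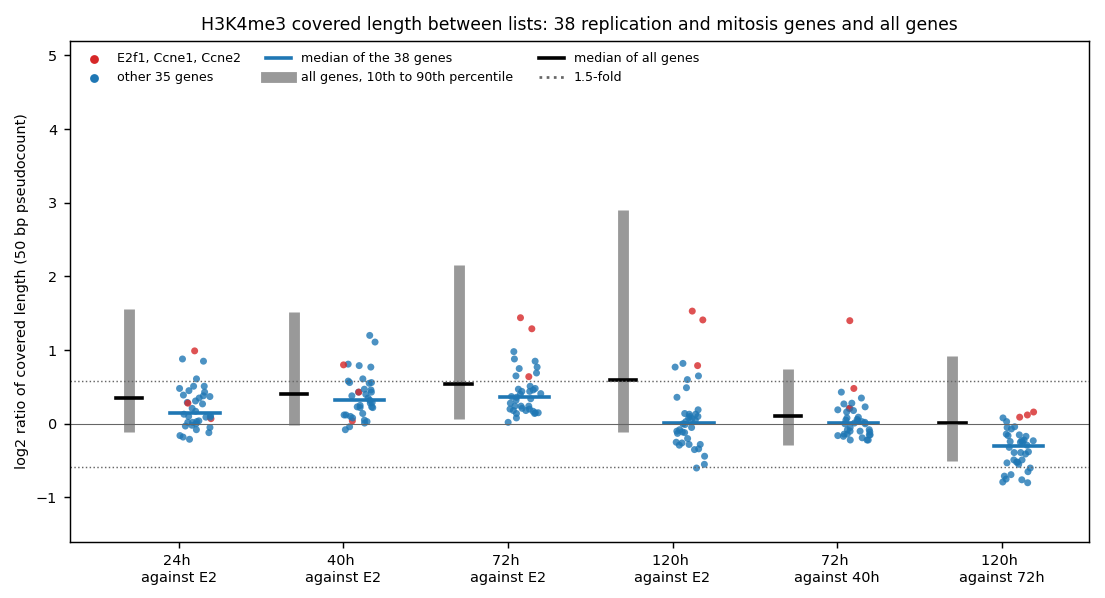
Log2 ratio of covered length (plus 50 bp) for 6 comparisons: points are the 38 genes (red, E2f1, Ccne1 and Ccne2), blue lines their median, grey bars the 10th to 90th percentile of all genes marked in at least one of the lists compared and black lines their median; dotted lines mark 1.5-fold. At 120 h against E2 the median of the 38 genes is 0.01 and that of all genes 0.59, and at 120 h against 72 h they are -0.30 and 0.01.

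The 3 genes of S phase entry were all higher at 120 h than at 72 h, as were 2 of the other 35. E2f1, the E2F factor that activates replication genes (chr2:154559400-154569892), had 1324, 1613, 1799, 2086 and 2333 bp, higher in each successive list. Ccne2, a cyclin E gene (chr4:11190433-11204779), had 803, 847, 1439, 2030 and 2215 bp, and its twin Ccne1 (chr7:38097984-38107490) had 467, 975, 481, 1355 and 1447 bp. All 3 were highest at 120 h, and with Ccnb2 and Kif11 they make up the 5 genes that were higher at 120 h than at 72 h.

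At 120 h against E2 they were 1.73-fold (E2f1), 2.90-fold (Ccne1) and 2.66-fold (Ccne2) wider, which is still inside the broad spread of all genes: 59.4%, 79.2% and 77.1% of the genes compared had a lower ratio. The course of Ccne1 was not smooth. In the 2 kb downstream of its start it had 0, 313, 0, 802 and 773 bp, so that in E2 and at 40 h all of its mark lay upstream. The window of E2f1 also holds part of Necab3 and that of Ccne2 part of Ints8, and any peak of theirs there is counted. At E2f1 peaks within 2 kb of its start made up the whole covered length in each list. Ccne1 has no other gene in its window.

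Origin licensing genes were lower at 120 h than at 72 h in 10 of 10 cases, against 49.2% of all genes. Mcm6, a subunit of the MCM ring (chr1:128331575-128359705), had 2156, 2201, 2579, 2400 and 1402 bp and was the single gene of the set past 1.5-fold below E2 at 120 h (log2 ratio -0.60). Mcm2 (chr6:88883474-88898780), also of the ring, had 857, 1186, 1339, 1182 and 662 bp, a log2 ratio of -0.79 between 72 h and 120 h and of -0.35 between E2 and 120 h. For both, 120 h was the lowest of the 5 lists and 40 h the highest.

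The other ring genes were also lower at 120 h than at 72 h, with highest values in different lists: Mcm5 had 1757, 2036, 2059, 2085 and 1440 bp and Mcm7 2169, 3049, 2776, 2495 and 1992 bp. Mcm3 and Mcm4 lay between 1007 and 2018 bp in all lists and were highest at 40 h and 72 h, and Mcm4 was lowest in E2. Among the loaders, Orc1, the largest subunit of the origin recognition complex, had 1640, 2052, 2230, 2361 and 1800 bp, and Cdc6 had 1320, 1747, 1368, 1857 and 1309 bp. Cdt1, the partner of CDC6 in loading the ring (chr8:122568015-122573130), had 1315, 1716, 1783, 2284 and 1863 bp and was the licensing gene furthest above E2 at 120 h, at a log2 ratio of 0.49. Orc6 stayed between 1822 and 2178 bp. The windows of Orc1 (Prpf38a), Orc6 (Vps35) and Mcm4 (Prkdc) also hold part of other genes.

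Helicase activation genes divided at E2. Mcm10 (chr2:4990724-5012791) had 658 bp in E2 and 1229, 1190, 1224 and 1020 bp later, so E2 was the low list and all 4 later lists were past 1.5-fold above it. Gins1 (1199, 1031, 1593, 1600 and 1001 bp) and Gins2 (920, 1255, 1367, 1291 and 743 bp), both subunits of the GINS complex, were narrower at 120 h than at 72 h, with log2 ratios of -0.65 and -0.76; the window of Gins2 also holds part of Gse1. Cdc45, the remaining partner of the active helicase, had 1620, 1535, 1977, 1845 and 1795 bp and differed by -0.04 on the log2 scale between 72 h and 120 h. Its window also holds part of Ufd1. The covered lengths of the helicase genes were therefore not uniform in this step.

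At the replication fork, Pcna (chr2:132249286-132253180), the sliding clamp, had 2019, 2168, 3005, 2569 and 1680 bp and was narrower at 120 h than at 72 h (log2 ratio -0.60; its window also holds part of Tmem230 and Cds2). Pola1 had 518, 758, 1257, 1073 and 950 bp and stayed 1.76-fold above E2 at 120 h. Pole, the leading-strand polymerase, had 1575, 1387, 1533, 1864 and 1577 bp, and Rfc3, a subunit of the clamp loader, had 994, 983, 1085, 1005 and 957 bp, the flattest course of the 4. The window of Pole also holds part of Pxmp2. In deoxynucleotide supply, Rrm1, the large subunit of ribonucleotide reductase (chr7:102441695-102469771), had 1358, 1329, 2022, 1763 and 989 bp, and Tyms, thymidylate synthase (chr5:30038546-30073645), had 1547, 2022, 1896, 2017 and 1212 bp. Their log2 ratios between 72 h and 120 h were -0.80 and -0.71, and that of Rrm1 was the lowest of the set. Rrm2, which encodes the partner subunit of RRM1, differed by -0.24.

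In all, 21 of 21 replication genes were lower at 120 h than at 72 h and 7 of them were narrower by 1.5-fold or more, against 49.2% and 7.13% of all genes; the 7 are among the 8 whose number depends on the measure. Their summed length was 30394, 35002, 39042, 39577 and 29274 bp. At 120 h it was near the E2 value.

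Mitosis genes were lower too, with smaller ratios: 12 of 14 were lower at 120 h than at 72 h (49.2% of all genes) and 1 was past 1.5-fold, a share like the 7.13% of all genes, with sums of 21442, 23971, 26379, 26457 and 22251 bp. That one was Top2a, the topoisomerase that untangles sister chromatids (chr11:98992947-99024199), at 1516, 1347, 1672, 1670 and 1018 bp and a log2 ratio of -0.69. The median log2 ratio of this step was -0.22 for the mitosis genes and -0.39 for the replication genes; the difference between them was not tested. Ccnb2 had 554, 872, 977, 923 and 981 bp and Bub1 714, 1352, 1594, 1360 and 1153 bp, and both stayed past 1.5-fold above E2 in all 4 later lists. Cdc20, the activator of the anaphase-promoting complex (chr4:118432901-118437343), had 1125, 1628, 1987, 1795 and 1211 bp, with a highest value at 40 h and a 120 h value within 0.10 of E2 on the log2 scale. The window of Cdc20 also holds part of Elovl1.

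Aurkb, the kinase of the chromosomal passenger complex (chr11:69045624-69051664), was highest at 72 h, with 1072, 1159, 1505, 1839 and 1392 bp. Cdk1, the kinase of mitotic entry, varied little, with 1781, 1805, 1888, 2115 and 1887 bp, and so did Ccna2, cyclin A (1679, 1784, 1696, 1937 and 1741 bp). Plk1, the Polo kinase, lay between 2121 and 2657 bp, Ccnb1 between 1108 and 1642 bp, Bub1b between 831 and 1370 bp and Tpx2, a spindle assembly factor, between 1141 and 1533 bp. The windows of Ccna2 (Exosc9 and Bbs7) and Plk1 (Ern2) also hold part of other genes. The 2 cyclin B genes differed at 120 h. Ccnb1 was lowest there, whereas Ccnb2, at 981 bp, stood barely above its 40 h value of 977 bp.

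The shorter covered length at 120 h lay on the gene side of the start. For the 30 genes with a promoter entry, the bases covered within 2 kb downstream of the start had a median of 1187.5, 1322.5, 1340, 1402 and 953 bp, and those within 2 kb upstream one of 250, 326, 470.5, 397 and 422 bp. Downstream, 30 of 30 genes had fewer covered bases at 120 h than at 72 h, against 58.6% of the 7588 genes marked within 2 kb of the start in all lists. Upstream the count was 13 of 30, against 41.9% of the 7588 genes. The median difference downstream was -377.5 bp for the 30 genes and -46 bp for the 7588. Among the 5436 genes whose downstream length at 72 h was in the range of the 30 genes (756 to 1993 bp), 64.7% were lower at 120 h and the median difference was -87 bp. This measure was chosen after the data were seen.

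The largest downstream differences were at Pcna (72 h, 1993 bp; 120 h, 1197 bp), Tyms (1752 and 1010 bp), Cdc6 (1557 and 827 bp), Rrm1 (1684 and 989 bp) and Top2a (1656 and 961 bp). The smallest were at Kif11 (1461 and 1444 bp), Cdc45 (844 and 824 bp), Ccnb2 (923 and 895 bp) and Ccne1 (802 and 773 bp). E2f1 also belonged to the small ones, with 1354 and 1294 bp downstream, and its greater total at 120 h came from upstream, with 732 bp (72 h) and 1300 bp (120 h). E2f1, Ccne1 and Ccnb2, whose totals were highest at 120 h (barely so for Ccnb2), were among the 6 genes with the smallest downstream difference. The totals include the downstream bases, so part of this overlap is built in.

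Position by position, the base 1 kb downstream of the start lay inside a peak for 25, 26, 28, 26 and 14 of the 30 genes, against 40.0%, 49.6%, 54.9%, 54.4% and 41.0% of the 7588 genes. The 30 genes were thus marked 1 kb into the gene more often than the 7588 in the first 4 lists. At 120 h their share (46.7%) was close to that of the 7588 genes. The start itself lay inside a peak for 7, 11, 12, 15 and 22 of the 30 genes, against 15.4%, 25.4%, 24.5%, 41.4% and 65.7% of the 7588 genes. In E2 the start therefore lay outside a peak in most genes of both groups. At 120 h peaks ran over the start in most of the 30 genes and most of the 7588 genes.

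**Figure D3:**
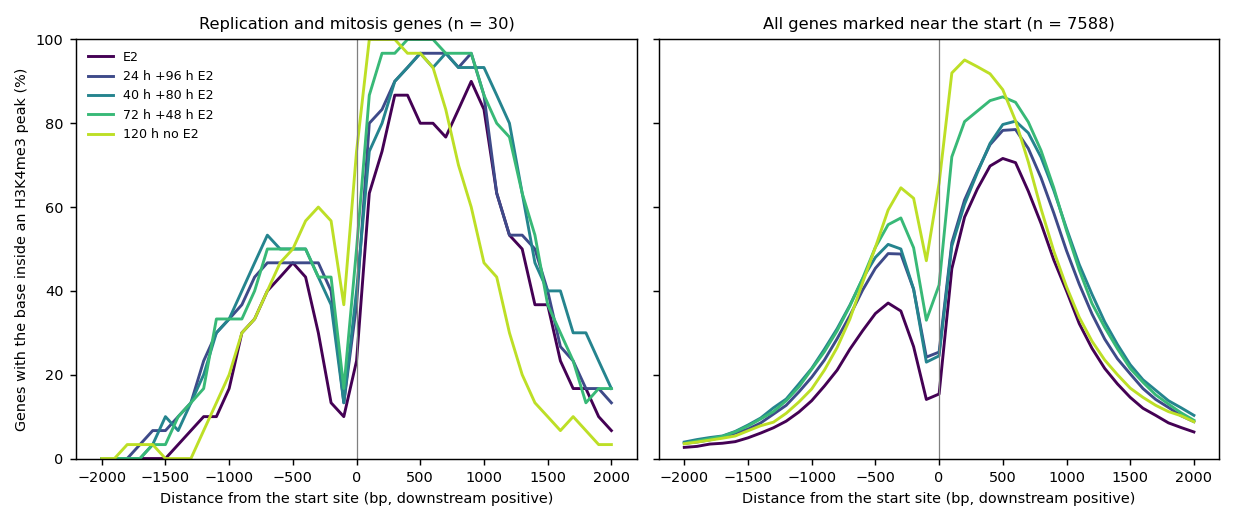
Percent of genes (y axis) with the base at each distance from the start of transcription (x axis, bp, downstream positive, in steps of 100 bp) inside an H3K4me3 peak, for the 30 genes with a promoter entry (left) and the 7588 genes marked within 2 kb of the start in all lists (right), 1 line per list. At 1 kb downstream the line of 120 h stands at 46.7% on the left, below the 83.3% to 93.3% of the other lists, and at 41.0% on the right, where the others run from 40.0% to 54.9%.

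Single loci had different shapes. At Mcm6, one block reached far into the gene from 24 h to 72 h, and at 120 h it had become 3 separate peaks, the widest of 785 bp, after 2400 bp at 72 h. At Top2a and Rrm1 the downstream edge lay nearer to the start, while at Pcna the block became shorter downstream and ran over the start. At E2f1 the block downstream of the start kept nearly the same far edge and extended upstream at 120 h.

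**Figure D4:**
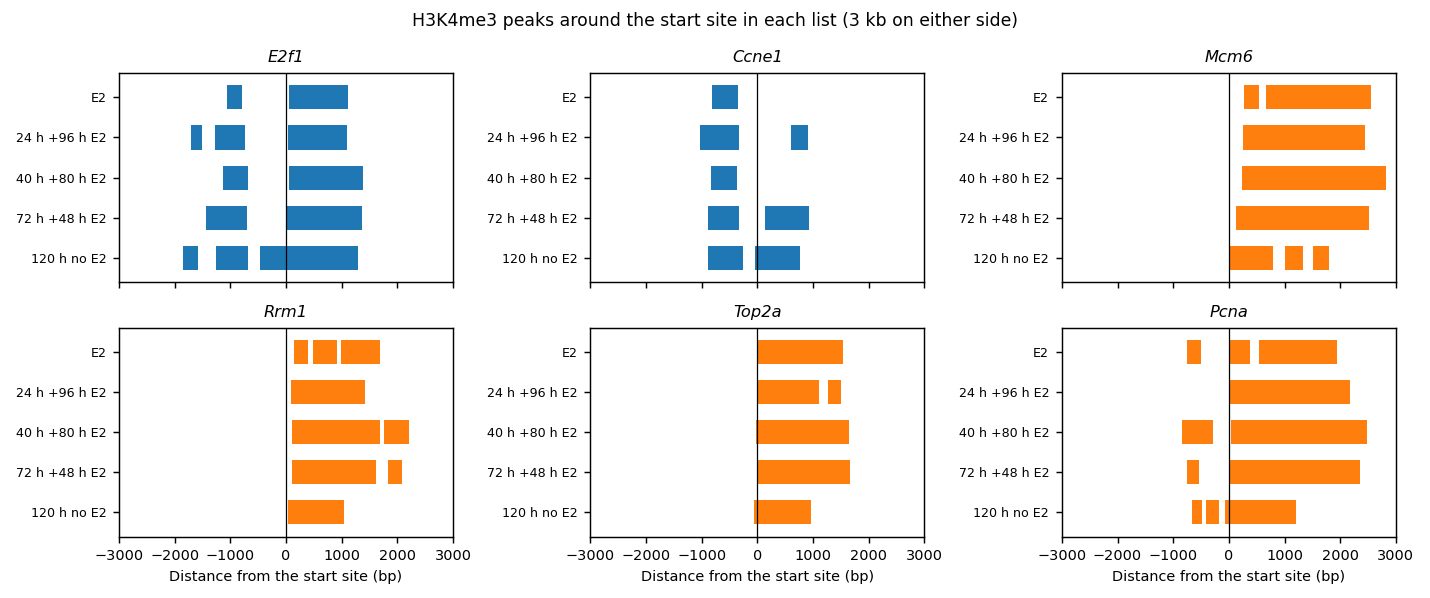
H3K4me3 peaks (bars, drawn to scale) in each of the 5 lists around the start (vertical line) of E2f1 and Ccne1 (blue) and Mcm6, Rrm1, Top2a and Pcna (orange), with the distance from the start in bp on the x axis and transcription running to the right. In the orange genes the bars of 120 h end nearer to the start than those of 72 h; at E2f1 and Ccne1 the downstream ends of both lists lie closer together.

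Further genes of both pathways were mostly lower at 120 h as well. Of 45 further replication genes and 45 further mitosis genes, 37 and 38 were lower at 120 h than at 72 h, with 1 wider and 2 narrower in the first list and 0 and 5 in the second, and medians of -0.22 and -0.26. Over all genes 49.2% were lower, 16.0% wider and 7.13% narrower, so the lists differed from all genes in how many were lower and little in how many were narrower. Downstream of the start, 29 of 36 and 31 of 34 with an entry had fewer covered bases at 120 h. Against E2 at 120 h, 8 were wider and 1 narrower among the replication genes and 9 and 2 among the mitosis genes, again below the 50.5% of all genes that were wider. The largest differences in bp above E2 were at E2f2, an activating E2F factor (1039, 1048, 1075, 1432 and 2733 bp), Pkmyt1, an inhibitory kinase of CDK1 (0, 551, 966, 898 and 1262 bp), E2f8, a repressing E2F factor (889, 1743, 1538, 1377 and 1867 bp), and Pold3, a subunit of the lagging-strand polymerase (282, 939, 1193, 1335 and 1130 bp).

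Pkmyt1 was the one gene of these 90 with no peak in a list. The largest differences below E2 were at Hmmr, a spindle-associated hyaluronan receptor (1782 bp in E2 and 1192 bp at 120 h), Rfc2, of the clamp loader (1307 and 750 bp), Kif23, a cytokinesis motor (1307 and 758 bp), and Pola2, the partner of POLA1 (1655 and 1139 bp). Of the E2F genes, E2f1, E2f2, E2f7 (443, 468, 546, 822 and 1097 bp) and E2f8 were highest at 120 h, and E2f3 (1967, 2285, 2583, 2642 and 2495 bp) at 72 h; E2f7 and E2f3 were named after their values were seen.

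Lower values at 120 h were also found outside the cell cycle genes. Of 35 ribosomal protein genes, 34 were lower at 120 h than at 72 h (49.2% of all genes) and 14 were narrower (7.13%). Downstream of the start 24 of 24 were lower (58.6% of the 7588 genes marked near it in all lists), with medians of 1555 bp (72 h) and 1012.5 bp (120 h). Among 15 marked G1 cyclin, kinase and inhibitor genes, 10 were higher at 120 h than at 72 h (50.8% of all genes) and 4 were wider (16.0%), while 0 were narrower (7.13%), and downstream of the start 6 of 10 were lower (58.6%), with a median difference of -99.5 bp. The wider ones included Ccnd3, cyclin D3 (3333 and 6676 bp), and the inhibitor genes Cdkn2d (1680 and 3534 bp) and Cdkn1a (1477 and 2467 bp), which were named after their values were seen.

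V5 or AM sites lay near 18 of the 38 genes. In V5-Hoxa9-AM cells a V5 site was listed within 10 kb of 16 of the 38 genes (33.4% of all genes) and an AM site within 10 kb of 10 (19.0%). Both kinds were listed at 8 genes, V5 alone at 8 and AM alone at 2 (Mcm10 and Mki67), and 20 genes had none. In V5-ER-Hoxa9-AM cells, whose lists are far shorter, a V5 site in E2 was listed at 1 gene, Rfc3 (3.9%), and none of the 38 had a V5 site at 72 h (1.19%) or an AM site in E2 (0.73%). Replication genes had V5 sites more often, at 12 of 21, than mitosis genes, at 4 of 14, and S phase entry genes had none of 3; no test of this difference was made. The search window grows with the gene, and the median length was 15770.5 bp for the 38 genes, 17329 bp for all genes and 30680.5 bp for all genes with a V5 site. Since 91.5% of AM sites have the coordinates of a V5 site, the AM list adds little that is independent.

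**Figure D5:**
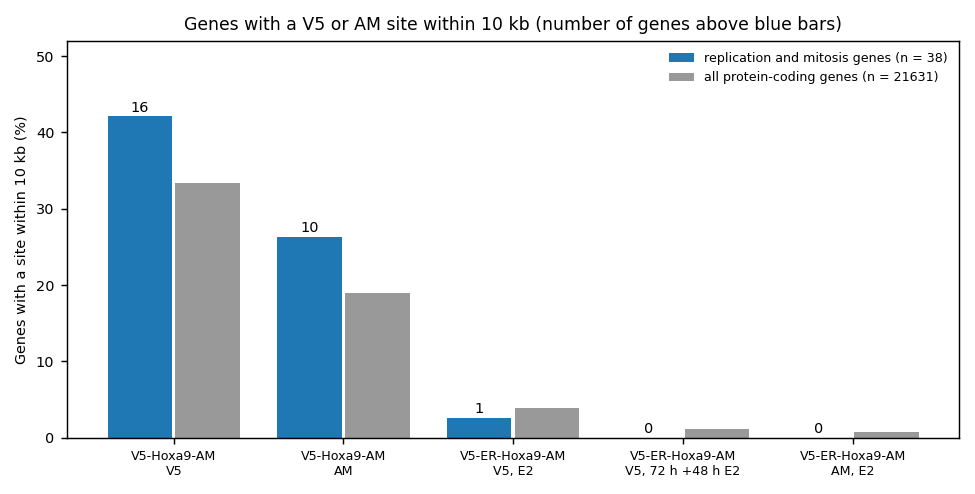
Percent of genes (y axis, from 0) with a site within 10 kb in each of the 5 V5 and AM lists (x axis), for the 38 genes (blue, with the number of genes above each bar) and all 21631 protein-coding genes (grey). The blue bars stand for 16 and 10 genes in the lists of V5-Hoxa9-AM cells and for 1, 0 and 0 genes in those of V5-ER-Hoxa9-AM cells.

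At 8 genes with a promoter entry the centre of a site lay within 1 kb of the start. V5 sites covered the starts of Orc1 (chr4:108579160-108579505), where the start of the neighbour Prpf38a also lies in the site, Cdk1 (chr10:69352888-69353141) and Rrm1 (chr7:102441667-102441899), and an AM site covered that of Mcm10 (chr2:5012760-5013002). These sites at Orc1, Cdk1 and Mcm10 contain the whole 120 bases printed above, and that at Rrm1 the end of them next to the start. Centres lay 265 bases upstream of the start at Cdt1 (AM) and 537 bases upstream at Bub1 (V5), and 205 and 723 bases downstream at Mki67 (AM) and Mcm7 (V5 and AM). A V5 site at Gins1 (chr2:150909468-150909767) spans one end of the gene, whose start is not in the table. All but that of Mcm10 overlapped H3K4me3 in at least 4 of the 5 lists, and that of Mcm10 in 1.

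Other sites lay inside genes or at a distance. Cdc6, Cdc45, Pole and Pola1 had sites with the same coordinates in the V5 and AM lists inside the gene, as at Cdc6 (chr11:98918157-98918552), and Cdt1, Mcm6 and Kif11 had such sites outside it, 3116, 762 and 5670 bases away. Mcm5, Rfc3, Pola1 and Kif11 had V5 sites inside the gene with no AM site, of which one of Rfc3 (chr5:151642862-151643130), 8212 bases downstream of the start, was shared with the V5 list of V5-ER-Hoxa9-AM cells in E2. Aurkb had a V5 site 3692 bases away. In sum, 12 of the 25 V5 sites near the set overlapped H3K4me3 in at least 1 list, against 19.7% of all V5 sites, and 6 of 12 AM sites, against 27.4%; the places near genes were searched by the rule, so some of this overlap is built in.

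Genes with and without a V5 site had similar H3K4me3 medians. The median log2 ratio between 72 h and 120 h was -0.30 for the 16 genes with a site and -0.32 for the others, and between E2 and 120 h it was 0.04 and -0.03. Among the further 90 replication and mitosis genes, 23 and 22 of 45 had a V5 site within 10 kb, against 33.4% of all genes. Their median lengths were 23784 and 27195 bp, against 17329 bp for all genes, and the search window grows with the gene. Of the 90 genes, 27 had a site in 2 or more lists, a count for which no share of all genes was computed. Prim2, a primase subunit, had the one V5 site of V5-ER-Hoxa9-AM cells in E2 among them.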

How the data were processed

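The deposited files are peak lists, and 10 of the 21 were used: 5 for H3K4me3, 3 for V5 and 2 for AM. Per the file headers and values they hold chromosome, start and end only; the deposited coordinates have no score, count or height. Bowtie2 2.0, BWA and MACS2 2.0, and the builds mm9 and mm10, are named per the submitters' processing notes; their role per file, threshold, pooling and use of input are not given in the sources used here. Between 58.5% and 69.3% of H3K4me3 peaks were at most 1 kb from one end of a gene, and at most 9.53% after a shift of 100 kb, so GRCm38 (mm10) was taken. V5 gave 11.7% and 5.67%, and AM 16.4% and 5.83%; the lists of V5-ER-Hoxa9-AM cells gave no contrast alone, but 76.1% to 97.2% of their sites have coordinates of a V5 site. On chromosome 1, whose last gene in that build ends at 195176880, the H3K4me3 lists end by 195241987, while H3K27ac and H3K27me3 lists reach 196958111 and 197003115; the build of these 11 lists was not settled and they were not used.

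Covered length is the union of peaks in the gene and 1 kb on either side; ratios used a pseudocount of 50 bp over the genes marked in at least one of the lists compared. The genes and lists were chosen with earlier results of these data known. Genes named were all 38 and, of the 90 further genes, the 4 per direction with the largest change in bp between E2 and 120 h, those at 0 bp in any list and those with sites in 2 or more lists (given as a number). The planned correlation over 5 lists is not given, as 5 points are too few. Motifs were searched in promoters, not in sites. The scripts were tested on simulated data. Python 3.11.15, numpy 2.4.6 and pandas 2.3.3 were used.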

Additional observations from a re-analysis of the deposited data

How the results depend on the processing

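The values rest on single libraries of unknown depth, so no result has an error between replicates. Over the alternatives, 45 of 48 medians of the log2 ratio stayed within the 95% interval of the median over the genes. Of the counts of wider or narrower genes, 81 of 120 stayed within 1.5 times. Among these alternatives a share of all genes was computed only for counts divided by the median of all genes. The other alternative counts in this section have no background. These 81 include counts of 0 that stayed 0, as for genes narrower at 72 h than in E2 under every alternative. A 0 that stays 0 says little about how stable a count is. Leaving out the 14 genes with a neighbour in the window (chosen after seeing the data) moved no median or count beyond these limits. Medians near 0 took the other sign: that of 120 h to E2, 0.01, was -0.09 with lists of equal length, -0.02 by the widest peak, -0.08 without a flank and -0.03 without those 14 genes, and that of 72 h to 40 h, also 0.01, was -0.02 with lists of equal length and -0.01 by the widest peak. The other 4 medians kept their sign under every alternative run.

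Counting only the 1 kb around each end of the gene, which cuts off the far edge of the mark, the median ratio of 120 h to 72 h was -0.02 (all genes 0.05) with 1 gene narrower, that of 120 h to E2 was 0.18 (all genes 0.60) with 0 narrower, that of 40 h to E2 was 0.20, and 2 genes were wider at 72 h than at 40 h. Without a flank, 4 genes were wider and 4 narrower at 120 h than in E2, and 2 wider at 72 h than at 40 h.

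With peaks above the median width of their list, 14 genes were narrower and 1 wider at 120 h than at 72 h, and 8 narrower at 120 h than in E2; 12 were wider and 2 narrower at 24 h, 12 and 1 at 40 h, and 5 and 5 at 72 h against 40 h. By the widest peak, 14 were narrower and 2 wider at 120 h than at 72 h, 4 and 11 at 120 h against E2, 11 wider at 24 h, 11 wider and 1 narrower at 40 h, and 5 and 2 at 72 h against 40 h. With lists of equal length (17497 peaks), 13 were narrower at 120 h than at 72 h, 5 at 120 h against E2, 2 at 24 h and 1 at 72 h against 40 h.

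At 2-fold, 0 genes were narrower at 120 h in either comparison, and 0, 2, 2 and 2 were wider than in E2 at 24, 40, 72 and 120 h. Divided by the median of all genes, 1, 2, 2 and 2 were wider than in E2 (18.7%, 18.1%, 21.2% and 27.4% of all genes). On that scale 19 were narrower at 120 h than in E2 (15.1% of all genes). Within 50 kb, V5 and AM sites of V5-Hoxa9-AM cells lay near 28 and 16 genes (55.8% and 36.4% of all genes). Within the same distance, sites of V5-ER-Hoxa9-AM cells lay near 5 (V5 in E2, 8.41%), 1 (V5 at 72 h, 2.6%) and 1 (AM in E2, 1.56%). With sites above the median width the numbers were 9, 4 and 0 (V5, AM, V5 in E2), against 20.2%, 9.99% and 2.14% of all genes.

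No paired analysis was possible because each condition had 1 library.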
